A study of Canis lupus familiaris with 7 samples.

Results

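The genes described here are mediators and effectors of acute inflammation, together with 3 S100 calcium-binding proteins. The list held 10 genes: S100A8, S100A9, S100A12, S100A4, IL1B, IL6, PTGS2, BCL2A1, TNF and CH25H. A gene was taken when a non-control probe carried its symbol in the array files. This gave 15 probes for 9 genes, out of 43603 probes and 13065 genes with a symbol on the array. S100A12 had no probe under its symbol and was not analysed here. S100A9 and BCL2A1 were chosen by their log2 intensities in wild-type tumours 1 and 2, which differed strongly although these arrays were otherwise alike. That difference is therefore given as a description only.

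RNA of 7 primary canine osteosarcomas, a malignant bone tumour that forms bone matrix, was measured on a 1-colour Agilent expression array, 1 dog and 1 array per tumour. The study compared tumours with and without a deletion of DLG2, which codes for a membrane scaffold protein. In the deleted group, tumour 1 came from a Mixed Breed dog (German Shepherd/Collie/X) of 8 years, tumour 2 from a Rottweiler X (Canine Mixed Breed) of 9 years, tumour 3 from a Greyhound of 6 years and tumour 4 from a Great Pyrenees of 7 years. In the wild-type group, tumour 1 came from a Boxer of 12 years, tumour 2 from a Mixed Breed dog (Labrador Retriever/X) of 10 years and tumour 3 from a Bull Mastiff of 8 years. The sex label was MC for deleted tumours 1 and 3 and wild-type tumour 3, and FS for the others. No treatment is named in the labels, and the tumours are whole tissue, so that fewer cells of a type and less RNA per cell cannot be told apart. Other genome changes in these tumours were not analysed here.

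S100A8 and S100A9 pair into calprotectin, a protein stored in large amounts in neutrophils and monocytes and released at sites of tissue damage, where it acts on Toll-like receptor 4 and the receptor AGER. IL1B, TNF and IL6 are cytokines that start and spread the acute response, and PTGS2 (cyclooxygenase 2) is the inducible enzyme of prostaglandin synthesis. BCL2A1 is a survival protein of the BCL2 family that NF-kappa-B induces in myeloid cells. CH25H adds a hydroxyl group to cholesterol and so makes an oxysterol that macrophages release upon stimulation. S100A4 is a relative of calprotectin linked to cell movement and is widely made by mesenchymal and tumour cells.

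The probes are 60 bases long, and what a value means depends on which stretch they cover. The 2 S100A9 probes are shown because they overlap: the capitals mark the 30 bases that they share, so their values are repeat readings of nearly the same stretch. Their coordinates in the files (canFam2 build) are chr7:46544312-46544371 and chr7:46544282-46544341, both listed from high to low.
S100A9 A_11_P139421: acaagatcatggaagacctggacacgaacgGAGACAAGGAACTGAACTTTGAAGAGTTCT
S100A9 A_11_P0000033532: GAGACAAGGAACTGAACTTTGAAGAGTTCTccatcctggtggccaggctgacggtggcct

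The S100A8 probe (chr7:46518533-46518592, listed from low to high) and the BCL2A1 probe (chr3:60317296-60317355) are shown as the single readings of these genes, with no capitals. Whether any of these probes lies in a coding exon or an untranslated region was not examined here, since no canFam2 annotation was used.
S100A8 A_11_P0000033530: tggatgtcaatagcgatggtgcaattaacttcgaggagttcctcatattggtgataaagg
BCL2A1 A_11_P0000032082: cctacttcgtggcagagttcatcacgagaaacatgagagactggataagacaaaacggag

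The 2 IL6 probes are shown because IL6 was the one gene of the list whose groups did not overlap. They do not overlap each other and are listed over 757 and 1257 bases of chromosome 14, longer than a probe, at chr14:39434431-39435187 and chr14:39435293-39436549.
IL6 A_11_P053561: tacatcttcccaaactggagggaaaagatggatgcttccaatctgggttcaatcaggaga
IL6 A_11_P0000020013: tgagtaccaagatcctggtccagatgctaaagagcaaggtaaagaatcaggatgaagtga

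IL1B had 3 probes, and 2 of them are near copies that differ by 9 single-base edits. Capitals mark the longest run of bases they share, 15 in all. The probe A_11_P000001223 is placed at chr17:40133354-40133413, and A_11_P000001227 has no position in the files.
IL1B A_11_P000001223: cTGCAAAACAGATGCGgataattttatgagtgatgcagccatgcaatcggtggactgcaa
IL1B A_11_P000001227: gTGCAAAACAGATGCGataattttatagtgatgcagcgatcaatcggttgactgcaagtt

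Per array, 30280 to 34538 probes were well above background and 0 spots were saturated. Of 5 slides, slide 2 carried deleted tumours 2 and 3 with wild-type tumour 2, and the other slides carried 1 tumour each. The 2 extraction sessions were set here from the time of image extraction, session 1 before noon and session 2 later. Deleted tumours 2, 3 and 4 and wild-type tumour 2 fell in session 1. The only DLG2 probe read 10.38, 11.44, 10.51 and 10.84 (log2 intensity) across deleted tumours 1 to 4 and 10.91, 12.03 and 11.75 across wild-type tumours 1 to 3, so the groups overlapped at this probe (difference -0.77, limma adjusted p = 0.711). Whether the deletion covers that probe was not settled here. The bone-forming genes COL1A1 (14.08 to 15.95) and ALPL (12.54 to 16.55) were well above background in all 7 tumours.

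Values are log2 intensities after background correction and quantile normalisation, and differences are the mean of the deleted minus the mean of the wild-type tumours. Only probes with a signal well above background on 3 or more arrays were kept. Of the 15 probes of these genes 11 were kept, covering 8 genes, and 0 of the 11 passed the threshold (limma, unadjusted p below 0.05 with Benjamini-Hochberg adjusted p below 0.1 over 32309 probes). Over all kept probes the percentage called was 0%, with a smallest adjusted p of 0.117. At an unadjusted p below 0.05 alone, 0 of the 11 probes were found by limma and 0 by the methods' t-test, against 2355 (7.29%) and 2246 of all kept probes. By limma 3.12% of all kept probes were higher and 4.17% lower in deleted tumours at that p. The wild-type tumours that chose S100A9 and BCL2A1 also enter the wild-type spread of these tests.

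**Figure D1:**
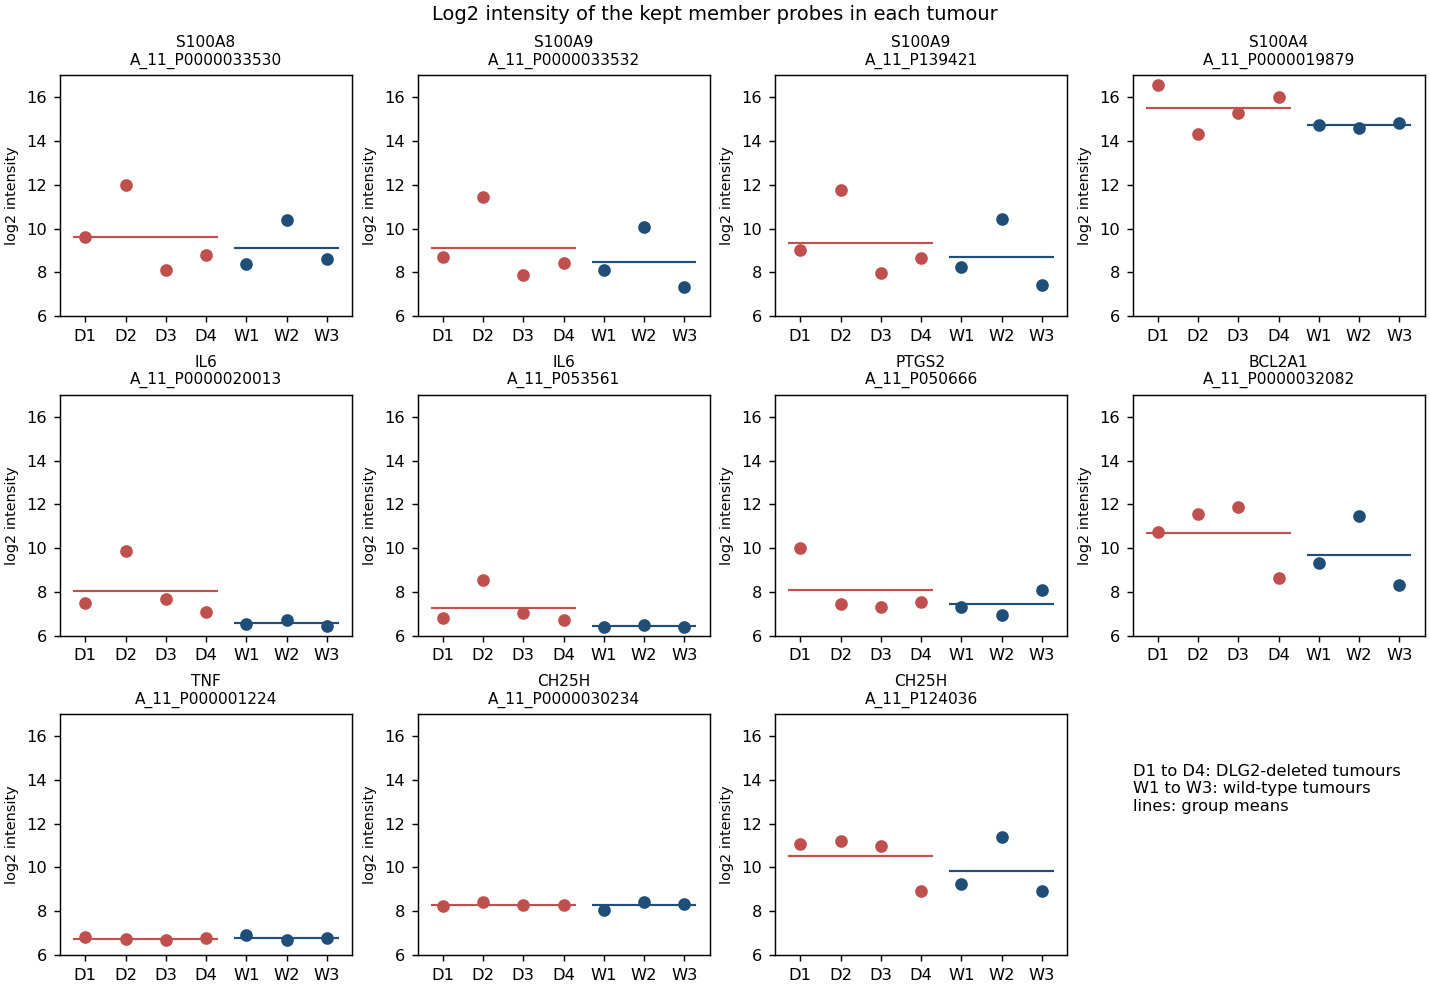
Log2 intensity (vertical axis) of the 11 kept probes in each of the 7 tumours (horizontal axis), with points for tumours and lines for group means. S100A8 and S100A9 were highest in deleted tumour 2 and then in wild-type tumour 2, BCL2A1 and the CH25H probe A_11_P124036 were high in deleted tumours 1 to 3 and wild-type tumour 2, and TNF stayed between 6.66 and 6.89.

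The same tumours were high for both calprotectin genes. S100A9 read 9.01, 11.77, 7.96 and 8.66 across deleted tumours 1 to 4 and 8.26, 10.45 and 7.41 across wild-type tumours 1 to 3 at A_11_P139421. Deleted tumour 2 and wild-type tumour 2 stood above the others, so that each group held its own high tumour and the groups overlapped. The overlapping probe A_11_P0000033532 read 8.71, 11.44, 7.86 and 8.41 in the deleted and 8.10, 10.06 and 7.33 in the wild-type tumours. After each probe was centred on its own mean, the 2 readings of S100A9 lay within 0.16 of each other in every tumour.

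S100A8, the partner of S100A9 in calprotectin, read 9.61, 11.98, 8.12 and 8.79 across deleted tumours 1 to 4 and 8.38, 10.41 and 8.60 across wild-type tumours 1 to 3. Deleted tumour 2 and wild-type tumour 2 were again the highest, and deleted tumour 3 the lowest.

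Neither gene differed between the groups beyond this spread. S100A8 had a mean of 9.63 ± 1.68 (SD, n = 4, deleted) against 9.13 ± 1.11 (SD, n = 3, wild type), which differ by 0.49 (SE 0.97, 95% interval -1.82 to 2.81, limma adjusted p = 0.954). S100A9 at A_11_P139421 had a mean of 9.35 ± 1.67 (SD, n = 4, deleted) and 8.71 ± 1.57 (SD, n = 3, wild type), which differ by 0.65 (SE 1.07, interval -1.90 to 3.19, limma adjusted p = 0.941), and A_11_P0000033532 gave 0.61 (SE 0.998). The sign rested on single tumours. Without deleted tumour 2 the difference was -0.29 for S100A8 and -0.16 for S100A9 (A_11_P139421). Without wild-type tumour 2 it was 1.13 and 1.52. Within session 1 (3 deleted, 1 wild type) S100A8 and S100A9 differed by -0.78 and -0.98, within session 2 (1 and 2) by 1.12 and 1.18, and within slide 2 (2 and 1) by -0.36 and -0.58.

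The genes whose pattern over the 7 tumours lay nearest to S100A9 were taken by the root mean square difference of centred log2 values, over 11087 other genes. S100A8 was the nearest at 0.39, where S100A9 itself had an SD of 1.53. TNFAIP8L1 (0.70), GPM6A (0.70), the globin chain HBE1 (0.70) and the lipid droplet protein PLIN2 (0.71) followed at a larger distance. HBE1 read 10.36, 12.82, 8.97 and 9.55 in the deleted and 9.43, 11.54 and 10.46 in the wild-type tumours, so its highest tumours were those of S100A9. Among the other genes of the list, IL6 ranked 53 by nearness to S100A9, CH25H (A_11_P124036) 144 and BCL2A1 952. For IL6 only 1 of 3 wild-type readings was well above background at the probe used, A_11_P0000020013, so its rank rests partly on readings near the background. TNF ranked 5521, S100A4 10778 and PTGS2 10805, so S100A4 and PTGS2 were among the genes least like S100A9.

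A probe without a gene symbol, A_11_P0000033531, lies between the S100A8 and S100A9 probes at chr7:46532382-46532441 and was looked up after the values of its neighbours were seen. It read 9.12, 12.53, 7.31 and 8.30 in the deleted and 8.18, 10.56 and 7.67 in the wild-type tumours. Deleted tumour 2 and wild-type tumour 2 were the highest there too, and the difference between the groups was 0.51 (SE 1.32, limma adjusted p = 0.966).

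S100A4 (A_11_P0000019879, chr7:46473066-46473125) was bright in every tumour and had another order. It read 16.55, 14.32, 15.27 and 16 across deleted tumours 1 to 4 and 14.74, 14.62 and 14.84 across wild-type tumours 1 to 3. Deleted tumours 1, 3 and 4 lay above all wild-type tumours, and deleted tumour 2, the highest for calprotectin, was the lowest of the 7. The means were 15.54 ± 0.96 (SD, n = 4, deleted) and 14.73 ± 0.11 (SD, n = 3, wild type), which differ by 0.80 (SE 0.50, 95% interval -0.38 to 1.98, limma adjusted p = 0.804). Without deleted tumour 2 it was 1.21 (adjusted p = 0.504). Within session 1, session 2 and slide 2 it was 0.58, 1.76 and 0.18.

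Of 15 other S100 proteins listed, 11 had a kept probe and 0 were called, with 0 at an unadjusted p below 0.05 in either direction. Their median difference was 0.10, against 0.01 over all 11088 genes with a value on every array, and -0.20 without deleted tumour 3. S100A1 (0.74, SE 0.86), S100A2 (-0.35, SE 0.41), S100A3 (-0.36, SE 0.18) and S100A5 (-0.72, SE 0.45) had limma adjusted p-values between 0.746 and 0.914. Of 18 genes of S100 receptors and Toll-like signalling, 12 were kept and 0 called, 0 of them at an unadjusted p below 0.05, with a median difference of 0.11. TLR4, the calprotectin receptor, differed by 0.43 (SE 0.60) and AGER by -0.05 (SE 0.10). The scavenger receptor CD36 differed by 0.12 (SE 1.04) and the adaptor MYD88 by 0.41 (SE 0.35).

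IL6 was the one gene of the list with groups that did not overlap, and it was dim. At A_11_P0000020013 it read 7.49, 9.87, 7.67 and 7.08 across deleted tumours 1 to 4 and 6.55, 6.71 and 6.45 across wild-type tumours 1 to 3. At A_11_P053561 it read 6.81, 8.53, 7.02 and 6.73 in the deleted and 6.39, 6.46 and 6.40 in the wild-type tumours. Every deleted tumour lay above every wild-type tumour at both probes, with deleted tumour 2 the highest. These were the only 2 of the 11 kept probes whose groups did not overlap, against 8.14% of all kept probes (3.92% with the deleted tumours higher and 4.22% with them lower). Both IL6 probes were well above background in 4 of 4 deleted tumours but in 1 of 3 and 0 of 3 wild-type tumours, so they were kept only through the group where they were brighter.

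Neither IL6 probe passed the threshold. A_11_P0000020013 had means of 8.03 ± 1.26 (SD, n = 4, deleted) and 6.57 ± 0.13 (SD, n = 3, wild type), which differ by 1.46 (SE 0.64, 95% interval -0.07 to 2.99, limma adjusted p = 0.700). Only 1 of the 3 wild-type readings was well above background, so 1.46 is no measured size. The same holds for the other differences at this probe. At A_11_P053561 the wild-type tumours were not well above background, so only an approximate bound can be given. The wild-type values were set to the lowest signal well above background on their array where that was higher. On the means of the log2 values, the deleted group was then 1.77-fold higher. That is no strict limit, since a reading that is not well above background can exceed the mean bound of 6.45. TNF at A_11_P055276 did so in wild-type tumour 1 (6.51). Deleted tumour 2 read 8.53 and the other deleted tumours 6.73 to 7.02, against a mean bound of 6.45. The limma adjusted p of 0.755 belongs to the measured values and not to this bound. Without deleted tumour 2 the difference at A_11_P0000020013 was 0.84 (limma adjusted p = 0.464). Within session 1, session 2 and slide 2 A_11_P0000020013 differed by 1.503, 0.99 and 2.07.

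How wide the IL6 gap was depended on the background correction. On the signal that the scanner software had already corrected, A_11_P0000020013 read 6.10, 9.54, 6.58 and 5.31 in the deleted and 2.00, 4.07 and 1.65 in the wild-type tumours after quantile normalisation. The groups stayed apart there. Since only 1 of the 3 wild-type readings was well above background, no size of the difference is given on that signal.

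Of 15 genes of the interleukin-6 family and its signalling, 10 were kept and 0 called, with a median difference of 0.14. At an unadjusted p below 0.05, 2 were higher and 0 lower, against 3.12% and 4.17% of all kept probes. The kinase JAK2 read 9.17, 9.17, 8.96 and 9.09 in the deleted and 8.31, 8.63 and 8.65 in the wild-type tumours. Its groups did not overlap, with a difference of 0.57 (SE 0.12, limma adjusted p = 0.457). The transcription factor STAT3, which JAK kinases activate, differed by 0.40 (SE 0.16, limma adjusted p = 0.678), with overlapping groups. JAK1 differed by 0.17 (SE 0.11) and the feedback inhibitor SOCS3 by 0.30 (SE 0.23). The receptor subunit IL6ST had no kept probe, and IL6R had no probe under its symbol.

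IL1B had 0 of 3 probes kept. A_11_P000001223 was well above background in 1 deleted and 1 wild-type tumour and read 6.39, 6.90, 6.44 and 6.37 in the deleted and 6.32, 6.66 and 6.38 in the wild-type tumours. Deleted tumour 2 and wild-type tumour 2 had the highest readings. Its near copy A_11_P000001227 read between 6.31 and 6.49 and was well above background on 0 arrays. The third probe, A_11_P054421 (chr17:40133496-40133555), read between 6.35 and 6.55 and was also well above background on 0 arrays. Of 15 genes of the interleukin-1 family and inflammasome, 8 were kept and 0 called, 0 of them at an unadjusted p below 0.05, with a median difference of 0.03. The receptor antagonist IL1RN differed by 0.12 (SE 0.22), the signalling receptor IL1R1 by 0.08 (SE 0.11), the decoy receptor IL1R2 by -0.05 (SE 0.66) and IL18 by -0.24 (SE 0.34).

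TNF, measured at A_11_P000001224 (chr12:4079134-4079193), was dim, and it was nearly level after this background correction. It read 6.81, 6.74, 6.66 and 6.76 across deleted tumours 1 to 4 and 6.89, 6.71 and 6.77 across wild-type tumours 1 to 3. The groups overlapped, and the SD over the 7 tumours stood at percentile 7.2 of all kept probes. On the signal corrected by the scanner software, after quantile normalisation, the deleted tumours read 4.80, 4.65, 3.81 and 4.49. The wild-type tumours read 4.74, 4.25 and 4.50 there, so the spread of TNF depended on the background correction. The means were 6.74 ± 0.06 (SD, n = 4, deleted) and 6.79 ± 0.09 (SD, n = 3, wild type), which differ by -0.05 (SE 0.09, 95% interval -0.26 to 0.17, limma adjusted p = 0.949). When arrays were scaled to their 75th percentile after the same background correction, which moved the median of all probes by 0.32, the difference was 0.64 (limma adjusted p = 0.586). The second TNF probe, A_11_P055276, was well above background on 0 arrays.

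Of 21 genes of TNF receptors and NF-kappa-B, 18 were kept and 0 called. At an unadjusted p below 0.05, 2 were higher (RIPK1 and RELA) and 1 lower (TNFAIP6), against 3.12% and 4.17% of all kept probes. The median difference was 0.22. RIPK1, a kinase of the TNF receptor complex, differed by 0.35 (SE 0.12, limma adjusted p = 0.612) and RELA, an NF-kappa-B subunit, by 0.35 (SE 0.14, limma adjusted p = 0.678), and the groups of neither overlapped. The receptors TNFRSF1A and TNFRSF1B differed by 0.46 (SE 0.35) and 0.19 (SE 0.16), and the adaptors TRADD and TRAF2 by 0.24 (SE 0.20) and 0.22 (SE 0.17). RIPK1, RELA and TNFAIP6 were picked for their p-values and are given as a description.

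PTGS2 (A_11_P050666, chr7:22632252-22632311) was high in 1 tumour. It read 9.99, 7.45, 7.30 and 7.52 across deleted tumours 1 to 4 and 7.30, 6.94 and 8.09 across wild-type tumours 1 to 3. Deleted tumour 1 stood above all others, and wild-type tumour 3 came next. The means were 8.06 ± 1.29 (SD, n = 4, deleted) and 7.44 ± 0.59 (SD, n = 3, wild type), which differ by 0.62 (SE 0.70, 95% interval -1.05 to 2.29, limma adjusted p = 0.911). Without deleted tumour 1 it was -0.02. Within session 1, session 2 and slide 2 it was 0.48, 2.30 and 0.43.

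Of 21 genes of the prostaglandin and leukotriene pathway, 18 were kept and 0 called, with a median difference of -0.03. At an unadjusted p below 0.05, 0 were higher and 1 lower, against 3.12% and 4.17% of all kept probes. The lower one was PTGS1, the constitutive cyclooxygenase, which read 6.98, 6.49, 6.79 and 6.89 in the deleted and 9.10, 8.99 and 6.70 in the wild-type tumours. Wild-type tumours 1 and 2 were high and wild-type tumour 3 lay among the deleted tumours. The probe was well above background in 3 of 4 deleted and 3 of 3 wild-type tumours. Its low readings lay near the background, so the size of its difference is uncertain. PTGS1 differed by -1.48 (SE 0.58, limma adjusted p = 0.666), which passed the threshold without wild-type tumour 3 (-2.26, limma adjusted p = 0.044). That setting called 46 probes over the whole array, against 0 with all 7 tumours. It leaves only wild-type tumours 1 and 2, the most similar pair of arrays. The prostaglandin E synthases PTGES, PTGES2 and PTGES3 differed by 0.27 (SE 0.90), -0.01 (SE 0.14) and -0.22 (SE 0.25).

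BCL2A1 separated the tumours in another way than calprotectin. It read 10.75, 11.58, 11.87 and 8.62 across deleted tumours 1 to 4 and 9.32, 11.45 and 8.33 across wild-type tumours 1 to 3. Deleted tumours 1 to 3 and wild-type tumour 2 were high, deleted tumour 4 and wild-type tumours 1 and 3 were low, and the groups overlapped. The means were 10.701 ± 1.47 (SD, n = 4, deleted) and 9.70 ± 1.59 (SD, n = 3, wild type), which differ by 1.0 (SE 0.996, 95% interval -1.37 to 3.37, limma adjusted p = 0.902). Without wild-type tumour 3 it was 0.32, without wild-type tumour 2 it was 1.87 and without deleted tumour 4 it was 1.70. Within session 1, session 2 and slide 2 it was -0.76, 1.92 and 0.27.

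CH25H had 2 kept probes that disagreed. A_11_P124036 (chr26:41949388-41949447) read 11.05, 11.19, 10.97 and 8.91 across deleted tumours 1 to 4 and 9.23, 11.38 and 8.92 across wild-type tumours 1 to 3. The high and low tumours were those of BCL2A1. A_11_P0000030234 (chr26:41950237-41950296), which starts 849 bases away, read between 8.06 and 8.41 in all 7 tumours, and its SD stood at the 18.9th percentile of all kept probes. The GC content was 36.7% for the first and 71.7% for the second probe, and its part in the disagreement was not tested. The group means at A_11_P124036 were 10.53 ± 1.08 (SD, n = 4, deleted) and 9.84 ± 1.34 (SD, n = 3, wild type), which differ by 0.69 (SE 0.78, 95% interval -1.18 to 2.55, limma adjusted p = 0.913). At A_11_P0000030234 the difference was 0.03 (SE 0.11, limma adjusted p = 0.976). Within session 1, session 2 and slide 2 A_11_P124036 differed by -1.02, 1.97 and -0.30.

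Over the 7 tumours the gene nearest to BCL2A1 was MAN1A1, a mannosidase of glycoprotein trimming, at a root mean square difference of 0.36, where BCL2A1 itself had an SD of 1.49. CH25H, read at A_11_P124036, was second at 0.46. ISG20 (0.54), PRSS23 (0.54) and the myeloid lectin receptor CLEC4E (0.59) followed. MAN1A1 read 11.60, 12.15, 12.56 and 9.51 in the deleted and 10.699, 11.55 and 8.99 in the wild-type tumours, and CLEC4E read 9.02, 9.51, 9.26 and 7.48 and 7.89, 9.66 and 7.67. Deleted tumour 4 was low for both genes, and wild-type tumour 2 was the highest of its group.

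Of 16 other BCL2 family genes, 10 were kept and 0 called, 0 of them at an unadjusted p below 0.05, with a median difference of -0.09. The survival genes BCL2, BCL2L1 and MCL1 differed by -0.19 (SE 0.51), -0.08 (SE 0.22) and -0.10 (SE 0.30) and the death effector BAX by -0.10 (SE 0.34). Of 16 genes of the oxysterol pathway, 14 were kept and 0 called, with a median difference of 0.10. At an unadjusted p below 0.05, 1 was higher and 0 lower, against 3.12% and 4.17% of all kept probes. That gene was CYP27A1, which makes another oxysterol. It read 11.22, 11.41, 10.87 and 11.41 in the deleted and 10.21, 10.27 and 9.62 in the wild-type tumours, with groups that did not overlap, a difference of 1.19 (SE 0.21) and a limma adjusted p of 0.381. CYP7B1 and HSD3B7, which act on oxysterols, differed by -0.37 (SE 0.49) and -0.10 (SE 0.11), and HSD11B1 by -0.06 (SE 0.17).

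**Figure D2:**
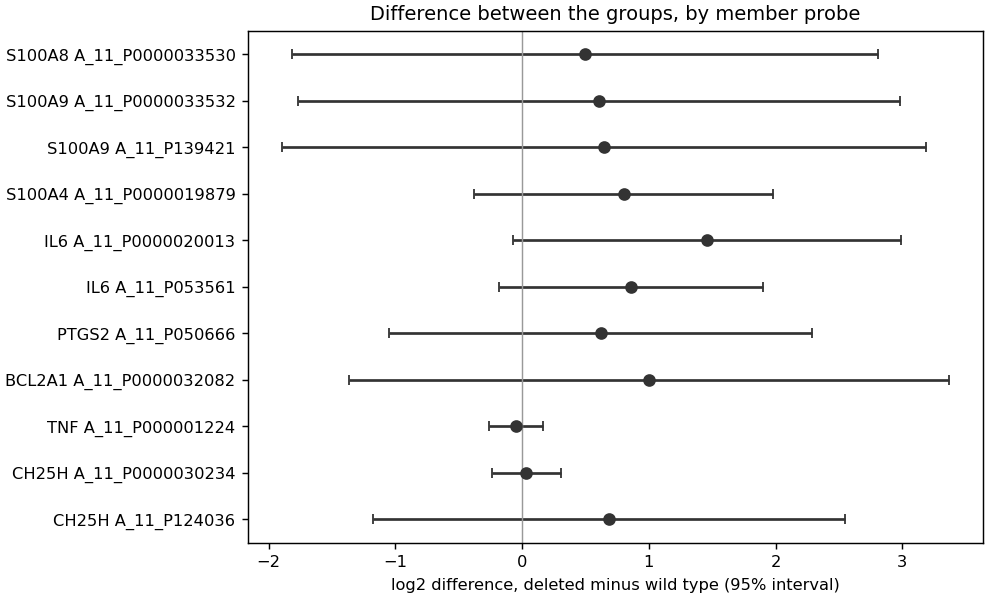
Difference in log2 intensity between deleted and wild-type tumours (horizontal axis, 0 at the grey line) for the 11 kept probes, with points for the limma estimate and bars for its 95% interval. All 11 intervals include 0, and the intervals of TNF (-0.26 to 0.17) and of CH25H at A_11_P0000030234 are far narrower than those of the other probes. TNF was dim, and its readings spread more widely on the signal corrected by the scanner software. The wild-type readings of IL6 were well above background in 0 of 3 tumours at A_11_P053561 and in 1 of 3 at A_11_P0000020013. Neither IL6 point is therefore a measured size.

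Wild-type tumours 1 and 2 had the most similar pair of arrays (Pearson r 0.987 over kept probes, which are not independent replicates, against 0.966 for the next pair). Their median absolute difference was 0.12, and 50 of 32309 kept probes (0.155%) lay over 2 apart. Of the 11 kept probes of this list 4 were among them, and that contrast is the one on which S100A9 and BCL2A1 were chosen. Wild-type tumour 2 was higher than wild-type tumour 1 by 2.19 for S100A9 at A_11_P139421 (4.55-fold) and by 2.15 for CH25H at A_11_P124036 (4.44-fold). The difference was 2.12 for BCL2A1 (4.36-fold) and 2.03 for S100A8 (4.07-fold). At the other CH25H probe, A_11_P0000030234, it was only 0.35 (1.27-fold). S100A9 at A_11_P0000033532 lay just under that limit at 1.96. S100A4 read 14.74 and 14.62 in this pair. IL6 at A_11_P0000020013 read 6.55 and 6.71, near the background, and 2.00 and 4.07 on the signal corrected by the scanner software, so its difference in this pair depended on the background correction. PTGS2 (7.30 and 6.94) and TNF (6.89 and 6.71) were lower in wild-type tumour 2.

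Genes were also ranked by the size of that difference, over 11088 genes each read at its brightest kept probe. S100A9, CH25H (A_11_P124036) and BCL2A1 held places 8, 9 and 10. The genes before them were CA3 (-3.89), PDK4 (2.91), the bone proteoglycan OMD (-2.81), APOC1 (2.45), the neutrophil attractant IL8 (2.41), the globin chain HBD (2.27) and PLIN2 (2.20), each as wild-type tumour 2 minus 1. Other kept probes differed less in this pair. PDK4 at A_11_P0000026794 read 6.441 and 6.832 in wild-type tumours 1 and 2, and IL8 at A_11_P053416 read 7.073 and 8.515. At its brightest probe IL8 read 9.73, 13.23, 7.38 and 7.67 in the deleted and 7.95, 10.36 and 6.76 in the wild-type tumours, so deleted tumour 2 and wild-type tumour 2 were again the highest. HBD read 11.25, 13.74, 9.77 and 10.46 and 10.27, 12.54 and 11.44. The pair lay on different slides and in different extraction sessions, which cannot be told apart from the difference between the dogs.

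**Figure D3:**
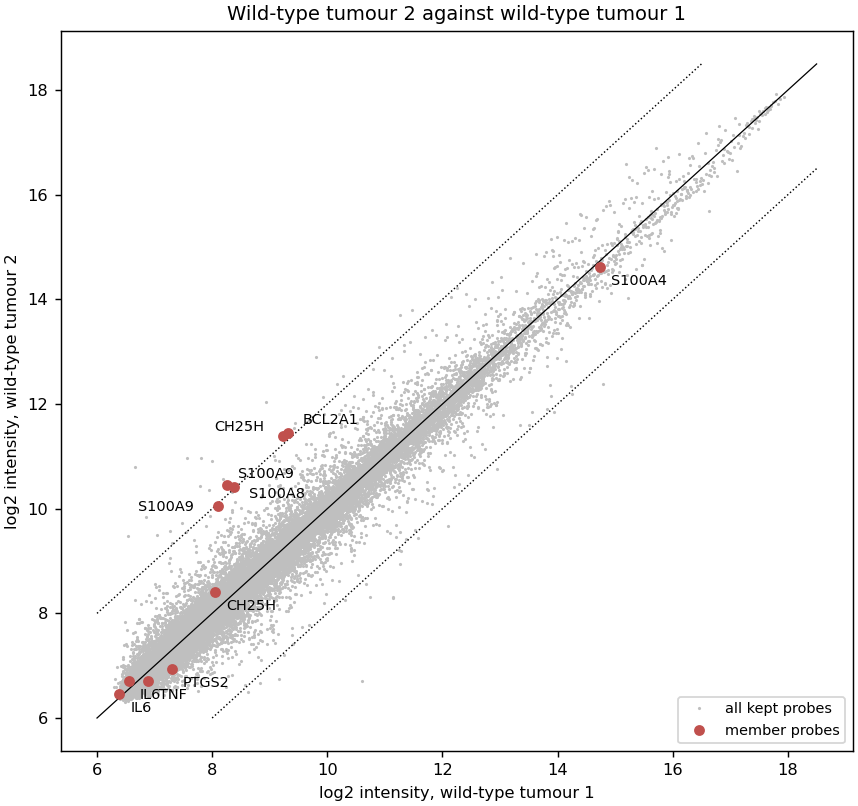
Log2 intensity of each of the 32309 kept probes in wild-type tumour 1 (horizontal axis) and wild-type tumour 2 (vertical axis), with the line of equal values and dotted lines 2 above and below it. The probes of S100A8, S100A9, BCL2A1 and CH25H (A_11_P124036) lie along or just past the upper dotted line, and those of S100A4, IL6, TNF and PTGS2 lie near the line of equal values, IL6 close to the background.

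Levels of cell type markers are given beside these patterns. Of 20 neutrophil markers 14 were kept and 0 called, 0 of them at an unadjusted p below 0.05, with a median difference of 0.09. Deleted tumour 2 was the highest tumour for 7 of the 14, against 17.9% of all genes, and the median centred level was -0.14, 0.29, -0.06 and -0.25 across deleted tumours 1 to 4 and -0.16, 0.00 and -0.10 across wild-type tumours 1 to 3. The granulocyte receptor CSF3R read 6.73, 7.51, 6.55 and 6.70 in the deleted and 6.67, 6.81 and 6.64 in the wild-type tumours, highest in deleted tumour 2. CXCR2 (6.43 to 6.96) and ELANE (6.59 to 6.78) were dim, each well above background in 6 of 7 tumours, and MPO differed by -0.83 (SE 0.49). The summed linear intensity of the markers ran from 5186 to 27862 in deleted and from 8377 to 120264 in wild-type tumours, led by MMP9 at 16.84 in wild-type tumour 3, a gene that osteoclasts also make. The part of neutrophils in the S100A8 and S100A9 values was not tested.

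Of 17 monocyte and macrophage markers 15 were kept and 0 called, 0 of them at an unadjusted p below 0.05, with a median difference of -0.06. Their median centred level was -1.01, 0.17, 1.59 and -0.51 in the deleted and -0.26, 0.91 and -0.56 in the wild-type tumours. Deleted tumour 3 and wild-type tumour 2, both high for BCL2A1 and CH25H (A_11_P124036), had the highest marker levels, while deleted tumour 1, also high at both probes, had the lowest. CD163 read 7.76, 10.32, 11.23 and 9.02 in the deleted and 9.16, 10.90 and 8.25 in the wild-type tumours, and 13 of the 15 markers were higher in wild-type tumour 2 than in wild-type tumour 1 (49.4% of all genes). MRC1, like CD163, was highest in deleted tumour 3 (9.22). CSF1R and CD68 were highest in wild-type tumour 3 (8.82 and 12.41), which was low for BCL2A1. CD68 read 10.92 in wild-type tumour 1 and 10.83 in wild-type tumour 2. CSF1R, CD68 and MRC1 differed by -0.55 (SE 0.48), -0.74 (SE 0.53) and 0.63 (SE 0.38) between the groups. The summed intensity ran from 11078 to 66461 in deleted and from 18243 to 32335 in wild-type tumours, and the part of macrophages in these values was not tested.

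Of 14 lymphocyte markers 11 were kept and 0 called, with a median difference of 0.10. At an unadjusted p below 0.05, 4 were higher and 0 lower, against 3.12% and 4.17% of all kept probes. These 4 were CD3D (1.98, SE 0.37, limma adjusted p = 0.434), CD3E (0.51, SE 0.17), CD8A (0.36, SE 0.12) and MS4A1. The groups of CD3D, CD3E and CD8A did not overlap. Over all kept probes 3.92% had groups that did not overlap with the deleted tumours higher. MS4A1 was well above background in 3 of 4 deleted and 0 of 3 wild-type tumours, so it was kept only through the deleted group. It counts among the 4 only for that reason, and no difference is given. CD2 differed by 0.30 (SE 0.22). IL6 was also higher in every deleted than in every wild-type tumour, and the part of lymphocytes in that was not tested. Of 15 keratinocyte and epithelial markers, which bear on S100 proteins made in skin, 2 were kept, with a median difference of -0.52, and KRT14, KRT1 and KRT10 were not. EPCAM differed by -0.995 (SE 0.53) and KRT19 by -0.05 (SE 0.12). Of 12 osteoblast markers 7 were kept and 0 called, 0 of them at an unadjusted p below 0.05, with a median difference of -0.29. RUNX2 differed by -0.29 (SE 0.24), BGLAP by -1.45 (SE 0.94), ALPL by -1.27 (SE 1.03) and COL1A1 by -0.12 (SE 0.47).

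**Figure D4:**
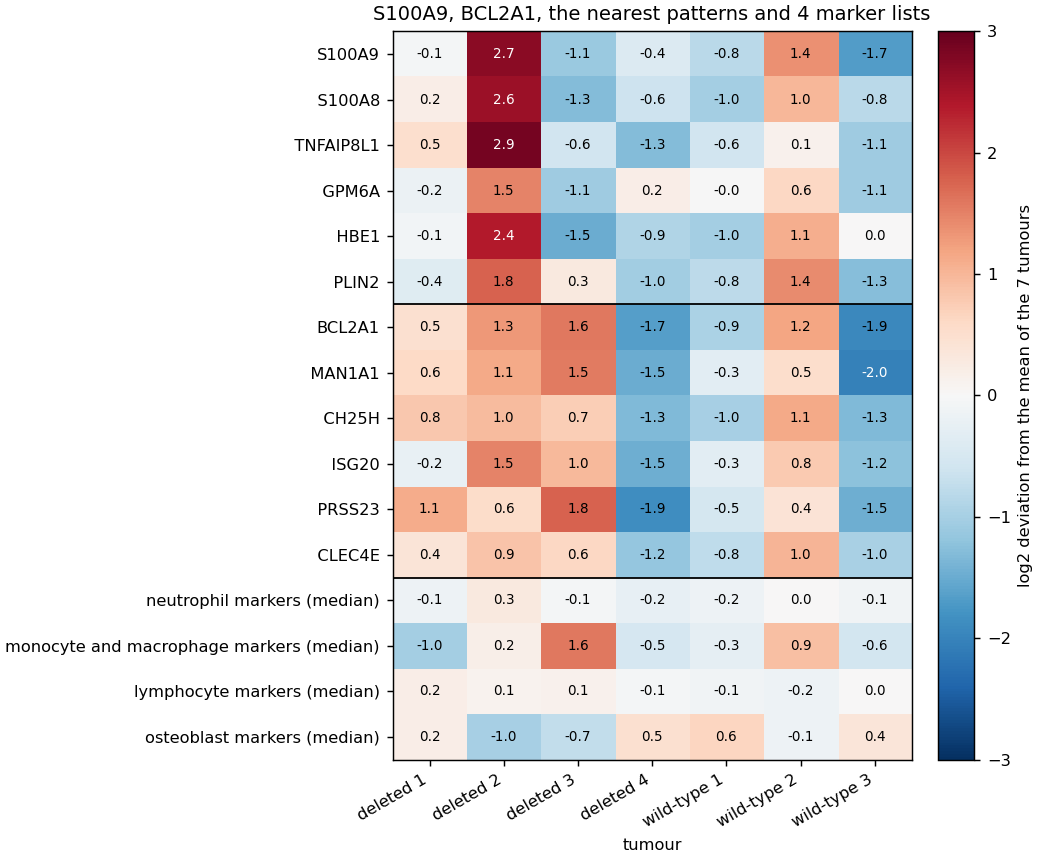
Deviation of the log2 intensity from the mean of the 7 tumours (colour and printed values) for S100A9 and BCL2A1, the 5 genes nearest to each, and the medians of 4 marker lists (rows), by tumour (columns). Deleted tumour 2 and wild-type tumour 2 are above the mean for S100A9 and S100A8, deleted tumours 1 to 3 and wild-type tumour 2 for BCL2A1, MAN1A1 and CH25H (A_11_P124036), and the macrophage markers are highest in deleted tumour 3.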

How the data were processed

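Each deposited file is the output of Agilent Feature Extraction 10.7.3.1 for 1 array, with linear spot and local background intensity and a processed intensity corrected by that program. The authors name multi-array average normalisation and batch correction but not the batch itself. Groups, breeds and ages are those of the labels, and tumour numbers only name a tumour. Background correction used normexp (saddle, offset 50) on mean spot against median local background intensity, followed by quantile normalisation and log2, with limma 3.58.1 in R 4.3.3. Of 45220 spots per array 43803 were no controls, and they gave 43603 probes after replicate spots were averaged. The 144 values marked as outliers were dropped.

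Probes well above background on at least 3 arrays were kept, 32309 in all. The group comparison used limma (lmFit and eBayes, two-sided, no covariates). The stated threshold combined p below 0.05 with a Benjamini-Hochberg adjusted p below 0.1, as in the study's methods. Probes were named from the files, and 1845 more from RefSeq names for assembly UU_Cfam_GSD_1.0. Each gene in a list was read at its brightest kept probe.

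The genes, the lists and the tests were chosen with earlier results of these data known. Named were the listed genes, the first 4 kept genes of each list, the 5 nearest patterns to S100A9 and BCL2A1, and the 10 largest differences between wild-type tumours 1 and 2. Other genes named from the lists (RIPK1, RELA, TNFAIP6, MS4A1 and single markers) were picked after their values were seen. The number of arrays limits the precision, and the limma procedure was tested on simulated data. Alternatives covered the processed intensity, scaling to the 75th percentile, the filter, the methods' t-test, limma options, slide, extraction session, sex label, wild-type tumours 1 and 2 counted as 1, and leaving out each tumour.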

Additional observations from a re-analysis of the deposited data

Results flagged for a closer look

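Within the 4 deleted tumours, the distance of the farthest tumour to its nearest neighbour, as a share of the group's range, was compared with Dixon's limit for 4 samples. Of 24 such groups tested 4 exceeded it, where chance gives 1.2, and groups of 3 were not tested. PTGS2 had a share of 0.92 with deleted tumour 1 far above the others at 9.99. CH25H at A_11_P124036 had a share of 0.901 with deleted tumour 4 far below at 8.91, and BCL2A1 was also low in that tumour, at 8.62. IL6 at A_11_P053561 had a share of 0.84 with deleted tumour 2 at 8.53. The list of the interleukin-6 family and its signalling had a share of 0.905, with the median centred level of deleted tumour 4 at -0.14.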

How the results depend on the processing

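No paired analysis was possible because each tumour came from a different dog. Over 19 alternatives 0 probes of the listed genes passed the threshold, and 191 of 207 recomputed differences kept their sign. The filter settings, the methods' t-test and limma's trend and robust options leave the group means as they were. Signs could not change there, and the 191 include them. Over all probes the count called was 4 on the processed signal with quantile normalisation, 10 on it with the 75th percentile, 23 with normexp and the 75th percentile, 4 with limma's trend and robust options and 1 with slide as a random block. It was 0 to 46 when single tumours were left out, with 46 without wild-type tumour 3. Requiring a signal on all 7 arrays left 0 probes whose groups did not overlap, since both IL6 probes dropped out, and leaving out tumours gave 2 to 3.

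With slide as a fixed block, which compares wild-type tumour 2 with deleted tumours 2 and 3 alone, S100A8 was -0.36, S100A9 -0.41 and -0.58, and CH25H -0.30 and -0.058. Leaving out single tumours gave -0.29 to 1.13 for S100A8, -0.17 to 1.39 and -0.16 to 1.52 for S100A9, -0.023 to 0.94 for PTGS2, -0.091 to 0.0028 for TNF and -0.072 to 0.10 for CH25H at A_11_P0000030234. That CH25H probe gave -0.022 on the processed signal with the 75th percentile and -0.027 with the extraction session. TNF was 0.64 with normexp and the 75th percentile, which shifted the median of all probes by 0.32.

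List medians moved in the same way. With normexp and the 75th percentile they were 0.44 for S100 receptors, 0.72 for the interleukin-1 family, 0.53 for the interleukin-6 family, 0.12 for prostaglandins, 0.40 for oxysterols, 0.57 for neutrophil and 0.72 for lymphocyte markers. Lymphocyte markers were 0.43 and 0.25 on the processed signal (quantile, 75th percentile), 0.24 with the slide, 0.22 with the session and 0.054 to 0.27 without single tumours. Keratinocyte markers were -1.21 and -1.31 on the processed signal, and prostaglandins -0.20 with its 75th percentile, with 0 to 1 genes called without single tumours. With the slide block the interleukin-6 family was 0.32 and the BCL2 family 0.25. Other S100 proteins ranged from -0.20 to 0.16 without single tumours. On the processed signal (quantile, 75th percentile) wild-type tumour 1 minus 2 was -2.08 and -1.96 for IL6 at A_11_P0000020013, -1.18 and -1.14 at A_11_P053561 (not well above background in any wild-type tumour), and 0.49 and 0.52 for TNF. The cause was not tested for any of these changes. For IL6, IL1B and TNF the signal over background limits what can be read.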
